A study of Mus musculus with 21 samples.

Results

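The genes described here make cholesterol, sense it, move it within and between cells, and export it. They were 31 genes picked by their role, with earlier results of these data known, and all 31 were among the 25361 gene identifiers of the count table and passed the filter on low counts. The picks comprised 19 enzymes of sterol synthesis, 4 genes of sterol sensing, 4 genes of transport, uptake and esterification, and 4 targets of the liver X receptor, 3 of which export sterol. The 19 enzymes with Insig1 and Stard4 formed a list of 21 known targets of SREBP2, which was set against the 3 export genes.

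Messenger RNA was measured in the cecum of C57BL/6 mice that entered the study at 3 weeks of age and ate the Total Western Diet, a rodent feed modelled on human Western intake, for 6 weeks. For a further 3 weeks they ate that diet with 0%, 0.5%, 1.0% or 2.5% broccoli powder, so the controls had the Western diet as well and no group had an ordinary chow. There were 6 libraries at 0% and 5 at each other dose, and the labels name no sex, cage or diet composition. Sample titles carry a number per animal that runs in blocks by diet apart from 3 numbers above 70, so numbering and diet cannot be told apart, and p-values measure the spread between these mice.

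Cells build cholesterol from acetyl-CoA through mevalonate, isoprenoids, squalene and lanosterol. When sterol in the endoplasmic reticulum is low, the escort protein SCAP carries SREBP2 to the Golgi, where proteases release the fragment that switches on the synthesis genes, and when sterol is plentiful INSIG proteins hold SCAP back. Excess sterol makes oxysterols that activate the liver X receptor, which induces the exporter ABCA1, the half-transporters ABCG5 and ABCG8 and the ubiquitin ligase MYLIP. In the gut, absorbed cholesterol enters enterocytes of the small intestine through NPC1L1, is esterified by SOAT2, and is pumped back to the lumen by the ABCG5 and ABCG8 pair.

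The promoters of 3 SREBP2 targets that are described by library further on are printed to show where the letters bound by SREBP2 and its partner NF-Y stand. Each is the stretch of 250 bases before the start that the RefSeq promoter table of GRCm38.p6 gives the gene, on the plus strand, written 5′ to 3′. Capitals mark the core of the sterol regulatory element, searched as TCACNCCAC, and the CCAAT box of the factor NF-Y, both on either strand, so that a box on the other strand reads ATTGG. The stretches lie at chr13:119690101-119690350 (Hmgcs1), chr13:8885356-8885605 (Idi1) and chr5:28071162-28071411 (Insig1). GENCODE starts Idi1 and Insig1 further upstream than RefSeq does, so the last bases of these stretches lie within its bounds of the gene.
Hmgcs1: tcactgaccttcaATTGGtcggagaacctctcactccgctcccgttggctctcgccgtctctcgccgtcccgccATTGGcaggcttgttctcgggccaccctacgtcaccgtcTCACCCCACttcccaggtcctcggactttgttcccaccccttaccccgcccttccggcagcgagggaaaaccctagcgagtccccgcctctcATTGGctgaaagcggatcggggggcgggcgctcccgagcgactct
Idi1: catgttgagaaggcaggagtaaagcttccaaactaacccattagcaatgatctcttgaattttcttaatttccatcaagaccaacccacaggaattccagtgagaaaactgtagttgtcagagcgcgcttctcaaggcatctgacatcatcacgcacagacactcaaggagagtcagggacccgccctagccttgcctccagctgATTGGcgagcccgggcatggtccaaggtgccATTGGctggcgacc
Insig1: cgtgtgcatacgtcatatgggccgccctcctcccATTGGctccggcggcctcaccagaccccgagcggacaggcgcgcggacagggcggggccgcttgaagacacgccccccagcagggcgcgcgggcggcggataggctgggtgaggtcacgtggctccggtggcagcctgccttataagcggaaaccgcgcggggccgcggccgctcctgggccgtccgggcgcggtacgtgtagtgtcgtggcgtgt
Hmgcs1 held 1 sterol element core, which begins at -137 from the start, and 3 CCAAT boxes, Idi1 held 2 CCAAT boxes and Insig1 held 1, all 6 boxes on the other strand.

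In windows of 300 bases, with 50 after the start added, 25 of the 31 genes had an entry. Fdps, Fdft1, Sqle, Stard4, Npc1 and Soat2 had none. The CCAAT box was in 22 of the 25 (88%) and in 16 of the 17 SREBP2 targets with an entry (94.1%), against 41.1% of the 27025 genes of the table. The sterol element core was in 1 of the 25, Hmgcs1, against 1.44% of all genes in the table. Among 23 further genes of cholesterol handling that are not in the set, 18 had an entry and 11 of them (61.1%) held a CCAAT box. These are matches of letters and not measured binding.

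Library totals lay between 28514263 and 58594569 counts. Markers of the small intestine set some libraries apart, with the mean log2 CPM (counts scaled to the library total after TMM adjustment) of a list of 12 at 3.58 in 0% replicate 5 and 4.29 in 1.0% replicate 1. The value was 2.28 in 0.5% replicate 4, 1.63 in 2.5% replicate 1, 1.60 in 0.5% replicate 1 and 1.53 in 2.5% replicate 2, and between -0.72 and 0.28 in the other 15. The list held Fabp6, which spanned 9.42 to 71.7 CPM in these 6 libraries and 0.106 to 1.84 CPM in the other 15, and the Paneth cell defensins Defa24 and Defa17, listed at 0 in 10 and 17 of the 21 libraries. Slc10a2, Apoa1, Apoa4, Sis and Defa24 also lay higher in all 6 than in any of the 15. Apoc3, Alpi, Lct, Rbp2, Itln1 and Defa17 overlapped, with Lct at 0.203 to 0.439 CPM in the 6 and 0.132 to 0.655 CPM in the 15. Markers of large intestine surface epithelium had a mean log2 CPM between 8.48 and 9.28 in all 21. At 2.5%, replicates 3, 4 and 5 were the highest of all libraries in an immediate early list, at 7.51, 7.97 and 7.64 against 6.13 to 7.19 in the other 18. Because the cecum was sequenced in bulk, fewer cells of a type and less RNA per cell cannot be told apart.

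**Figure D1:**
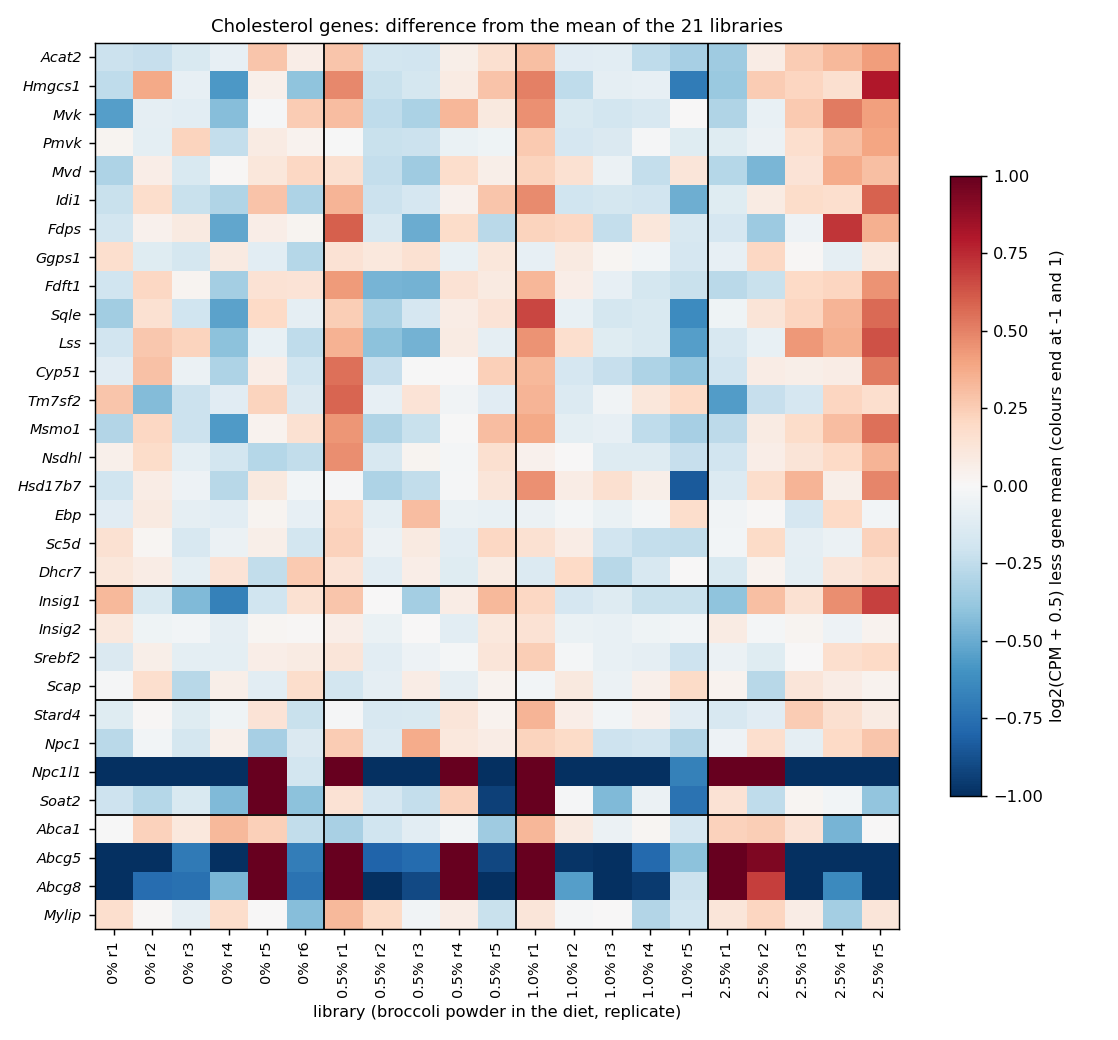
Each row is 1 of the 31 genes and each column 1 of the 21 libraries, and colour gives log2(CPM + 0.5) less the mean of the gene over the libraries, with colours ending at -1 and 1. Most enzymes and Insig1 were warm in 0.5% replicate 1, 1.0% replicate 1 and 2.5% replicate 5, where 19, 18 and 21 of the 21 SREBP2 targets lay above their median, while Npc1l1, Abcg5 and Abcg8 were warm in the 6 libraries high in small intestine markers.

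Synthesis transcripts differed widely in level among themselves. Scaled to exon length, Hmgcs1 was the highest of the 31 at 80.9 CPM per kb of exon in the mean of 21 libraries. It makes HMG-CoA, the precursor of mevalonate. Next came Insig1 at 52.2, Idi1, the isomerase of isoprenoid synthesis, at 46.4, the sterol carrier Stard4 at 35.9 and the lanosterol demethylase Cyp51 at 33.8 CPM per kb. The lowest enzymes on that scale were Tm7sf2, a sterol reductase, at 1.25 and the mevalonate kinase Mvk at 2.07 CPM per kb. Abca1 stood at 2.64 and Npc1l1, Abcg5, Soat2 and Abcg8 at 1.35, 0.893, 0.844 and 0.699 CPM per kb. The means of these last 4 genes were raised by a few libraries described further on. Before scaling to exon length they were 6.03, 2.42, 1.87 and 2.62 CPM, where the medians of the 21 libraries were 0.221, 0.157, 1.23 and 0.264 CPM. Their order by mean is therefore not that of a typical library.

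At 2.5% broccoli powder the synthesis genes were mostly somewhat higher than at 0%, but none of them passed the test adjusted over all genes. In edgeR's quasi-likelihood test with Benjamini-Hochberg adjustment over 15652 genes, 0 of the 31 genes passed an adjusted p of 0.05, where 0.109% of all genes tested did. DESeq2 and limma voom also called 0 of the 31. At an unadjusted p under 0.05 there were 2 of the 31, Insig1 and Npc1, both higher, where 8.43% of all genes tested were under it. Of the 31 genes 23 had a positive log2 change, and of the 21 SREBP2 targets 19 did, with a median of 0.21 over the targets. Of all genes tested 46.9% had a positive change, with a median of -0.01. Targets measured in the same libraries are not separate observations. Such counts of signs, here and further on, are therefore a description and not a test. No gene of the 31 had 2.5% libraries that all lay beyond the 6 controls, which 0.664% of all genes tested had.

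Hmgcs1 stood at 241, 320.6 and 467.5 CPM (lowest, median and highest) at 0% while replicates 1 to 5 at 2.5% were at 278, 429, 417, 403 and 627 CPM. At 0.5% it was at 503, 308, 319, 382 and 439 CPM, and at 1.0% at 509, 302, 339, 340 and 222 CPM. Replicate 5 at 2.5% and replicate 1 at each of the lower doses lay above all controls, and every dose overlapped them. The log2 change at 2.5% was 0.37 ± 0.22 (SE), with an edgeR adjusted p of 0.650, and the change was 0.20 without replicate 5.

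Idi1 stood at 128, 136.5 and 194 CPM (lowest, median and highest) at 0% and at 146, 169, 181, 179 and 240.0 CPM at 2.5%. The 0.5% libraries were at 202, 138, 142, 164 and 194 CPM and the 1.0% libraries at 221, 139, 141, 139 and 113 CPM. The pattern was that of Hmgcs1, with 1 library at 2.5% above the controls and wide overlap. Its log2 change at 2.5% was 0.28 ± 0.16 (SE, edgeR adjusted p = 0.652), and 0.16 without replicate 5.

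Sqle, the squalene epoxidase that makes the first oxygen-dependent step toward sterols, was at 38.8, 50.9 and 64.7 CPM (lowest, median and highest) at 0% and at 54.7, 61.6, 65.4, 71.4 and 83.5 CPM at 2.5%. At 0.5% it was at 67.1, 45.2, 50.02, 59.3 and 62.0 CPM and at 1.0% at 89.8, 53.5, 49.7, 50.7 and 36.4 CPM. Replicates 3 to 5 at 2.5% lay above all controls, but the single highest and lowest values were both at 1.0%. The log2 change at 2.5% was 0.37 ± 0.18 (SE, edgeR adjusted p = 0.607).

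**Figure D2:**
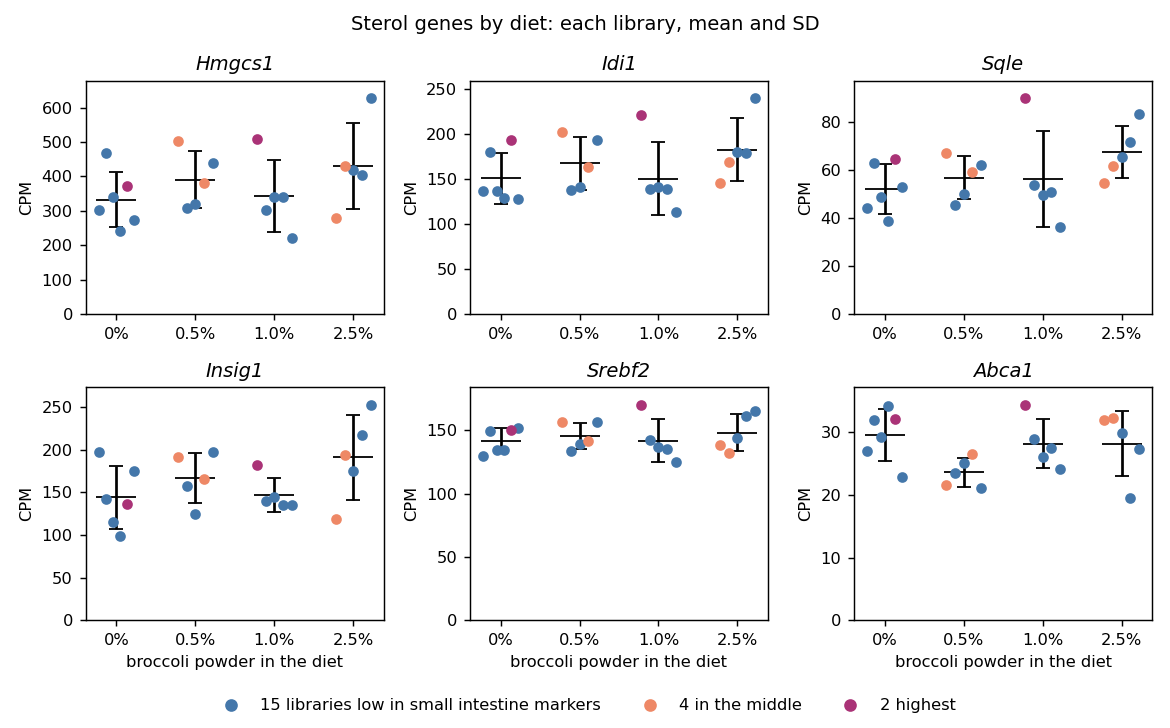
Points are the CPM of single libraries by diet for 6 genes, coloured by the level of small intestine markers, with bars for the mean and SD (n = 6 at 0%, 5 at each other dose). The ranges of the diets overlap in every panel, and for Hmgcs1, Idi1 and Insig1 the highest point is 2.5% replicate 5.

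Among the remaining enzymes, several had changes at 2.5% of the size of those of Hmgcs1, Idi1 and Sqle, and a pair had negative ones. At 2.5%, log2 changes were 0.36 ± 0.19 (SE) for Mvk, 0.32 ± 0.19 for the lanosterol synthase Lss, 0.29 ± 0.17 for the methylsterol oxidase Msmo1 and 0.26 ± 0.16 for Hsd17b7, a reductase of the sterol 3-keto group. Mvk, Lss, Hsd17b7 and Sqle each had 3 of the 5 libraries at 2.5% above all 6 controls, which was the most that any of the 31 genes had, with Npc1 alongside. The 2 enzymes with a negative change were late ones, Tm7sf2 at -0.05 ± 0.17 and the 7-dehydrocholesterol reductase Dhcr7 at -0.03 ± 0.09. Of the 19 enzymes 17 had a positive change, and the smallest edgeR adjusted p was 0.607, that of Sqle.

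**Figure D3:**
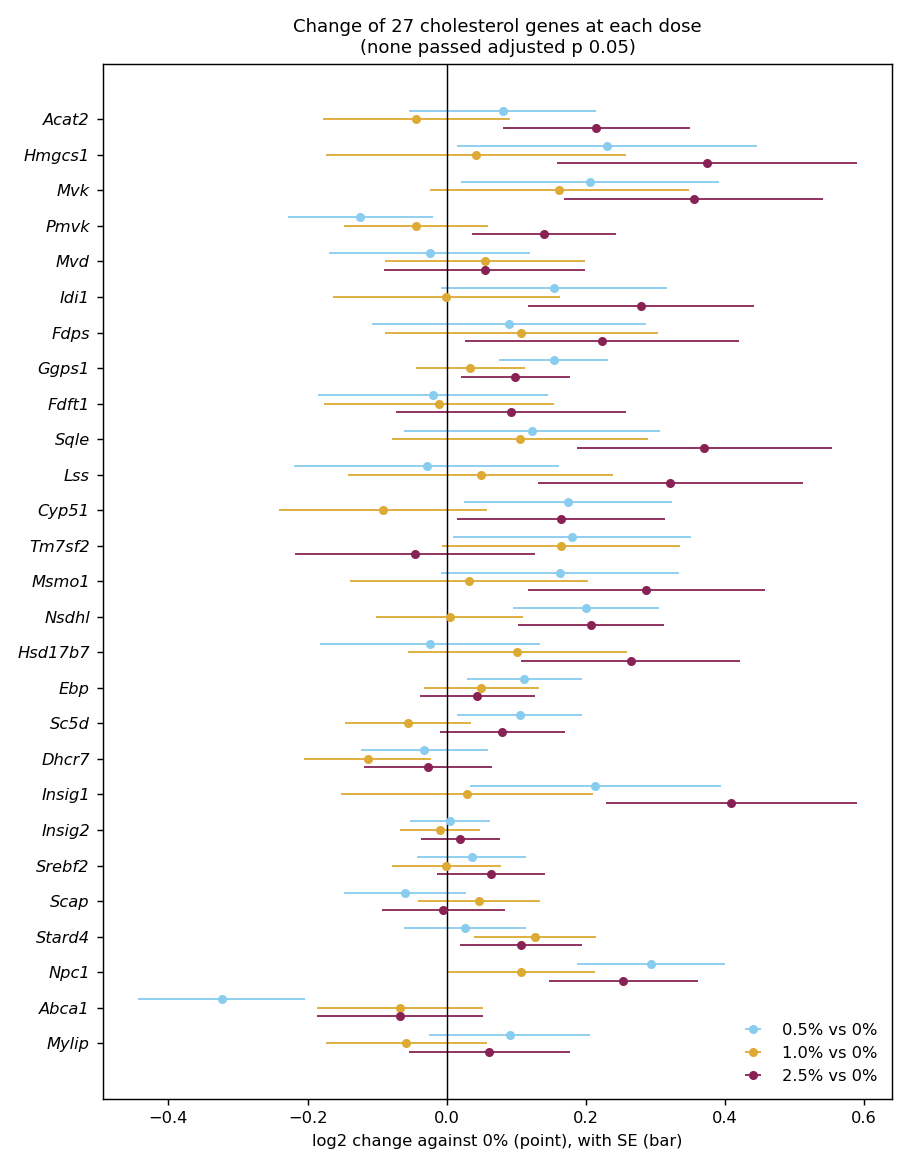
Points are log2 changes against 0% at each dose with SE bars, for the 27 genes other than Npc1l1, Soat2, Abcg5 and Abcg8, whose values span a wider range. At 2.5% most enzymes lie right of 0, at 1.0% they scatter about 0, and none passed the test.

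Insig1, the sterol-controlled brake on SREBP2 and itself an SREBP2 target, had the largest positive change of the 31 at 2.5%. It stood at 98.6, 139.3 and 197.3 CPM (lowest, median and highest) at 0% and at 119, 194, 175, 217 and 253 CPM at 2.5%. At 0.5% the libraries were at 191, 158, 124, 165 and 198 CPM and at 1.0% at 182, 140, 144, 135 and 135 CPM. Replicates 4 and 5 at 2.5% lay above all controls, and replicate 1 was below the control median. The log2 change was 0.41 ± 0.18 (SE, unadjusted p = 0.0348, edgeR adjusted p = 0.546).

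The other sensing genes varied little between libraries. Srebf2, which encodes SREBP2 itself, was at 130.1, 142 and 152 CPM (lowest, median and highest) at 0% and at 138, 132, 144, 161 and 165 CPM at 2.5%. At 0.5% it was at 156, 134, 139, 142 and 156 CPM and at 1.0% at 170, 142, 137, 135 and 125 CPM. The diets overlapped throughout, and its log2 change at 2.5% was 0.06 ± 0.08 (SE, edgeR adjusted p = 0.836). Insig2, the second INSIG gene, stayed between 74.9 and 89.0 CPM in all 21 libraries and Scap between 19.9 and 27.9 CPM, with log2 changes at 2.5% of 0.02 ± 0.06 and -0.00 ± 0.09 (SE).

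Among the genes of intracellular transport, Npc1 had the lowest unadjusted p of the 31 at both 0.5% and 2.5%. It encodes the lysosomal protein that releases cholesterol to the rest of the cell. Npc1 stood at 32.1, 36.2 and 42.1 CPM (lowest, median and highest) at 0%, at 48.5, 36.9, 52.5, 43.7 and 42.8 CPM at 0.5% and at 39.1, 45.6, 38.0, 46.5 and 49.2 CPM at 2.5%. At 1.0% it was at 47.4, 46.4, 35.0, 35.4 and 33.0 CPM. In 4 of 5 libraries at 0.5% and 3 of 5 at 2.5% it was above all controls, and the diets still overlapped. Its log2 change was 0.29 ± 0.11 (SE) at 0.5% (unadjusted p = 0.0109, edgeR adjusted p = 0.676) and 0.25 ± 0.11 at 2.5% (unadjusted p = 0.0252, edgeR adjusted p = 0.516). Stard4, which carries sterol between membranes, was between 171 and 253 CPM in all libraries, with a log2 change of 0.11 ± 0.09 at 2.5%.

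The genes of sterol intake, esterification and efflux to the lumen differed far more between libraries of 1 diet than between diets. Npc1l1 reached 40.2 CPM in replicate 5 of the controls and 53.5 CPM in replicate 1 of the 1.0% diet. Replicates 1 and 4 of the 0.5% diet had 5.49 and 9.62 CPM, replicates 1 and 2 of the 2.5% diet had 7.12 and 7.15 CPM, and the other 15 spanned 0.0261 to 0.959 CPM. These are the 6 libraries high in small intestine markers, and they did not overlap the rest. At 2.5% the split therefore ran within the diet, with 0.127, 0.117 and 0.108 CPM of Npc1l1 in replicates 3 to 5.

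Abcg5 and Abcg8, which lie head to head and share 82 exon bases on opposite strands, followed the same 6 libraries. Abcg5 was at 15.6 and 22.7 CPM in the same 2 highest libraries, between 1.65 and 4.63 CPM in the other 4 and at most 0.348 CPM in the 15. It had a count of 0 in 0% replicate 1 and in 2.5% replicates 3 to 5, where a floor of 3 counts corresponds to 0.0824, 0.0760, 0.0875 and 0.0814 CPM. Abcg8 was at 17.4 and 23.4 CPM in the 2 highest, between 1.56 and 4.56 CPM in the other 4 and between 0.0271 and 0.602 CPM in the 15. Of the 31 genes, Npc1l1, Abcg5 and Abcg8 had all 6 libraries above the 15 others, as 0.275% of all genes tested did, a division of libraries that was drawn after their marker values were seen. The 15 libraries together held only 146, 66 and 140 counts of these 3 genes, against 5142, 2070 and 2180 in the 6. Genes this low in the 15 can pass the count filter through the 6 alone, so the share is a description and not a test.

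Soat2 followed only part of the way. It had 5.82 and 10.7 CPM in the 2 highest libraries, but at 1.64, 1.78, 1.64 and 1.13 CPM in 0.5% replicates 1 and 4 and 2.5% replicates 1 and 2. The other 15 libraries spanned 0.516 to 1.47 CPM, so the middle 4 overlapped them. The diet changes of these 4 genes at 2.5% had SEs close to or above their size. They were -1.27 ± 1.87 (SE) for Npc1l1, -0.52 ± 0.68 for Soat2, -1.95 ± 1.91 for Abcg5 and -1.78 ± 1.70 for Abcg8. Without 0% replicate 5 alone the 4 changes turned positive, to 3.50, 0.29, 2.97 and 1.88.

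**Figure D4:**
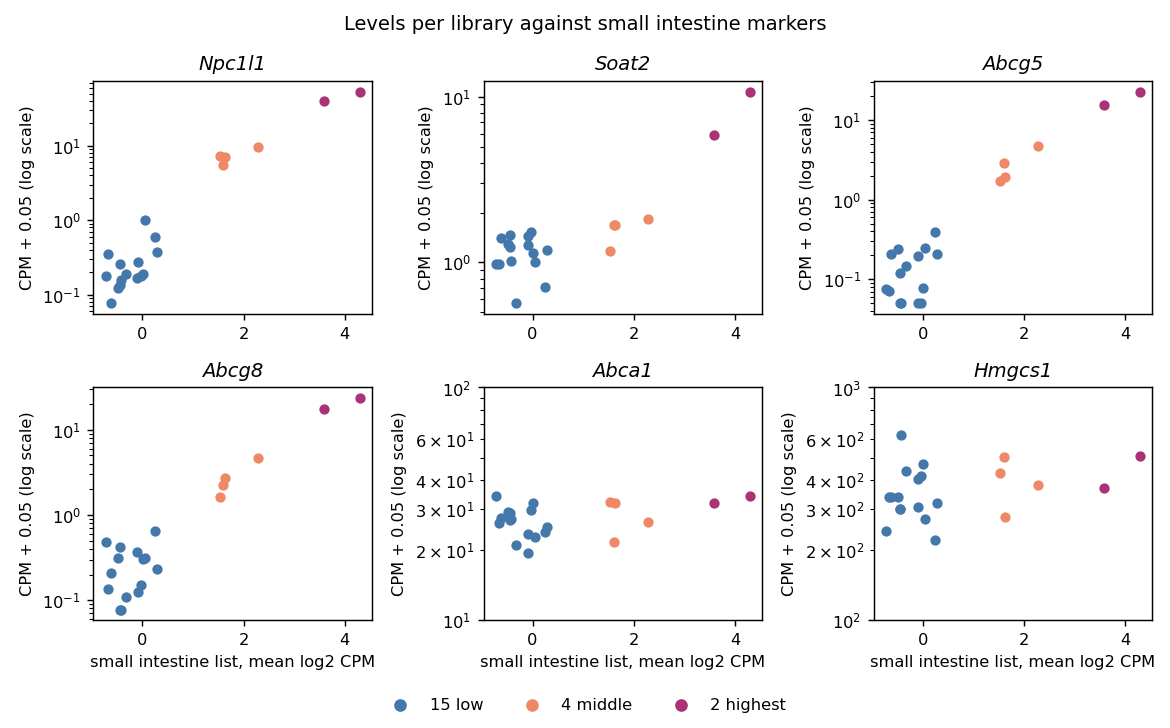
Each panel plots the CPM of 1 gene (log axis, CPM + 0.05) against the mean log2 CPM of the small intestine list, 1 point per library, with the 15 low, 4 middle and 2 highest libraries in 3 colours. Npc1l1, Abcg5 and Abcg8 climb with the list over all 3 colours, Soat2 is high in the 2 highest, and Abca1 and Hmgcs1 show no such division.

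Abca1, the exporter that loads cholesterol onto apolipoprotein A1, did not share this division. It was at 22.7, 30.5 and 34.0 CPM (lowest, median and highest) at 0% and at 31.9, 32.2, 29.8, 19.5 and 27.2 CPM at 2.5%. At 0.5% it was at 21.6, 23.5, 25.1, 26.5 and 21.03 CPM and at 1.0% at 34.3, 28.9, 26.04, 27.4 and 24.01 CPM. All 5 libraries at 0.5% were below the control median, 2 of them below every control, and the groups overlapped. The log2 change was -0.32 ± 0.12 (SE) at 0.5% (unadjusted p = 0.0124, edgeR adjusted p = 0.676), -0.07 ± 0.12 at 1.0% and -0.07 ± 0.12 at 2.5%. Libraries high in small intestine markers overlapped the rest, at 21.6 to 34.3 against 19.5 to 34.0 CPM.

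Mylip, whose product marks lipoprotein receptors for destruction, stood at 18.8, 25.6 and 28.9 CPM (lowest, median and highest) at 0% and at 27.7, 29.6, 26.8, 19.97 and 27.7 CPM at 2.5%. At 0.5% it was at 31.99, 29.2, 24.8, 26.8 and 21.7 CPM and at 1.0% at 27.7, 25.2, 25.5, 20.7 and 22.1 CPM. No diet stood apart. Its log2 change at 2.5% was 0.06 ± 0.12 (SE, edgeR adjusted p = 0.908).

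At 0.5%, 0 of the 31 genes passed where 0.00639% of all genes tested did, and 2 of the 31 had an unadjusted p under 0.05, Npc1 with a positive and Abca1 with a negative change, where 7.14% of all genes tested were under it. Positive changes were found in 15 of the 21 SREBP2 targets (12 with library totals as the scaling), with a median of 0.11, and in 49.2% of all genes tested. At 1.0%, 0 of the 31 passed, as did 0.0% of all genes tested, and 0 of the 31 against 3.18% of all genes had an unadjusted p under 0.05. Positive changes were found in 14 of the 21 targets, with a median of 0.03, and in 49.4% of all genes tested. Leaving out 1 library moved that count between 7 (without 1.0% replicate 1) and 17 (without 1.0% replicate 5), and it was 9 without 0% replicate 4. DESeq2 and limma voom called 0 of the 31 at both doses, and the 3 dose comparisons share the same 6 controls.

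Over all diets, the slope per 1% broccoli powder was positive in 19 of the 21 targets, where it was positive in 46.9% of all genes tested. Insig1 had a slope of 0.15 ± 0.07 (SE) in log2 per 1% and Sqle of 0.14 ± 0.07, the only 2 of the 31 with an unadjusted p under 0.05 (0.0446 and 0.0448), where 7.32% of all genes tested were under it. None of the 31 passed the edgeR adjusted p, with 0.669 for both, and 0.147% of all genes did. For any difference among the 4 diets 0 of the 31 passed, against 0.0256% of all genes tested. Npc1 alone had an unadjusted p under 0.05 there (0.0407), where 6.41% of all genes tested had one. DESeq2 and limma voom called 0 of the 31 in both tests.

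Which libraries carried the positive changes at 2.5% was uneven. The mean log2 CPM of the 21 targets was 5.43, 5.65, 5.77, 5.89 and 6.04 in replicates 1 to 5 at 2.5%, against 5.38 to 5.70 at 0%. Replicate 5 lay above the median of the 21 libraries in 21 of 21 targets (20 with library totals as the scaling) and was the highest library for 9 of them, and replicate 1 lay above it in 0 of 21 (2 with library totals). In replicates 1 and 5 respectively 48.4% and 46.8% of all genes tested lay above their median. At the other doses the target mean of 0.5% replicate 1 (5.95) and 1.0% replicate 1 (5.93) lay between those of 2.5% replicates 4 and 5. These 2 libraries lay above the median in 19 and 18 of the 21 targets, and 2.5% replicate 4 in 18.

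Replicates 3 to 5, the libraries highest in the immediate early list, held the 3 highest target means at 2.5%. Without those 3 libraries, 10 of the 21 targets had a positive change at 2.5% and 8 a positive slope. Lower counts follow from taking out the highest target means, so this removal does not test a link to the immediate early list. Replicates 1 and 2, which remained at 2.5%, were both high in small intestine markers. Replicates 3 and 4 were also the highest of all libraries in proliferation markers (4.56 and 4.62 against at most 4.43 outside 2.5%), and replicate 4 the lowest in smooth muscle markers (5.69). Epithelium markers were at 9.71, 9.84 and 9.65 in replicates 3 to 5 and at 9.53 and 9.46 in replicates 1 and 2, within 9.29 to 9.78 in the other diets but for replicate 4. The part of these markers in the target values was not tested.

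At 2.5%, 19 of the 21 SREBP2 targets had a positive log2 change and 0 of the 3 export genes did, with medians of 0.21 and -1.78, the latter set by Abcg5 and Abcg8. The signs of Abcg5 and Abcg8 rested on 1 control, as without 0% replicate 5 their changes were 2.97 and 1.88. The change of Abca1 was -0.07 ± 0.12 (SE), and it turned to 0.039 without 2.5% replicate 4. The contrast of medians is thus no sign that export fell. Per library, the difference between targets and export genes divided the samples by small intestine markers. This follows from the export mean holding Abcg5 and Abcg8, which already separated those libraries. In the 15 low libraries together they had only 66 and 140 counts. Their log2 CPM there depends in part on the prior count of 2. The target mean less the mean of Abca1, Abcg5 and Abcg8 was 1.21 to 3.57 log2 units in the 6 libraries high in small intestine markers and 4.51 to 7.13 in the other 15. Its mean and SD were 4.93 ± 1.85 in the 6 controls, and 4.71 ± 1.54, 4.56 ± 1.97 and 5.29 ± 1.92 in the 5 libraries each of the 0.5%, 1.0% and 2.5% diets. Taken against Abca1 alone, the mean and SD were 0.70 ± 0.25 in the controls, and 1.11 ± 0.30, 0.79 ± 0.04 and 0.96 ± 0.48 in the same 3 diets. The diets overlapped in both measures. For Abca1 alone the highest values, 1.60 and 1.51, were in 2.5% replicate 4 and 0.5% replicate 1, and the lowest, 0.29, in 0% replicate 4.

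The genes also differed in how far they varied between mice. Over the 15 libraries low in small intestine markers, the SD of log2 CPM was 0.39 for Hmgcs1, 0.37 for Insig1, 0.37 for Lss, 0.33 for Mvk and 0.33 for Fdps, the farnesyl diphosphate synthase. It was 0.06 for Insig2, 0.12 for Srebf2, 0.12 for Scap and 0.13 for Stard4. The median over all 15652 genes tested was 0.207, and 0.152 among the 9025 that averaged 10 CPM or more. The low-count genes Abcg5, Abcg8, Npc1l1 and Soat2 had the widest spread, at 1.03, 0.96, 0.94 and 0.40. Insig2, Srebf2, Scap and Stard4 lay below both medians, and so did the enzymes Ebp and Ggps1, each at 0.14.

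To see which genes varied together within diets, each was correlated with Insig1 over the 19 libraries outside the 2 highest in small intestine markers after each diet's mean was subtracted. Of the 19 enzymes, 11 (57.9%) had a Pearson r with Insig1 of at least 0.5, as had 3.32% of the other genes tested, and the median r was 0.539 for the enzymes and -0.0233 for all genes. All points share their library and its scaling. None of the 30 correlations passed an adjusted p of 0.05 by permutation within diets (two-sided, 100000 resamples, Benjamini-Hochberg over 30). The closest was Msmo1, with r = 0.722 (permutation p = 0.00515, adjusted p = 0.115) and Spearman rho = 0.681 (permutation p = 0.00957, adjusted p = 0.104), and next Acat2, the acetoacetyl-CoA thiolase of the first step, with r = 0.656 and rho = 0.609 (permutation p = 0.00976 and 0.0143, adjusted p = 0.115 and 0.104). Reads of Acat2 may be shared with its near copy Acat3.

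Abca1 lay at the other end, with r = -0.600 (permutation p = 0.0417, adjusted p = 0.115) and rho = -0.621 (permutation p = 0.0178, adjusted p = 0.104). Srebf2 had r = 0.513 and rho = 0.549 with adjusted permutation p = 0.131 and 0.104. Without 2.5% replicate 1 and 0% replicate 4, the 2 libraries farthest from the median of Insig1, r was 0.554 for Msmo1, 0.591 for Acat2, 0.465 for Srebf2 and -0.485 for Abca1, and the median for the enzymes was 0.373. Npc1, Scap and Ebp, the sterol isomerase, had r of 0.01, 0.03 and -0.04. With the epithelium and smooth muscle means removed the median for the enzymes was 0.448. Over only the 15 libraries low in small intestine markers it was 0.362, with a range of -0.18 to 0.614.

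**Figure D5:**
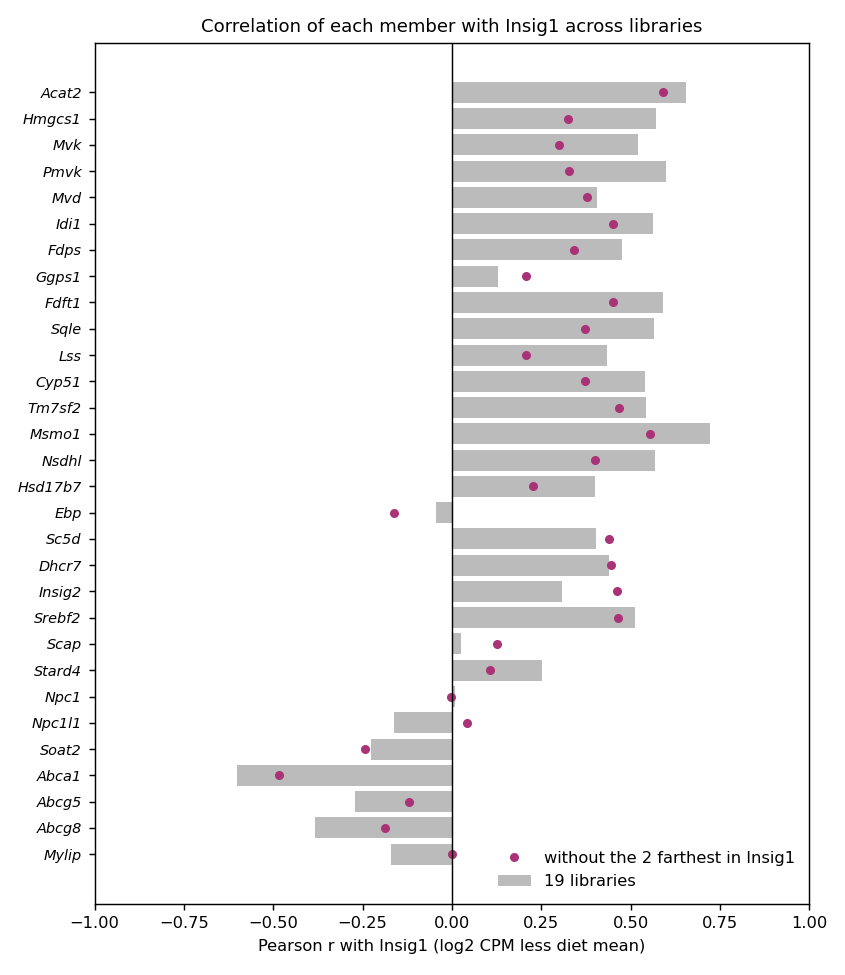
Bars give the Pearson r of each gene with Insig1 over 19 libraries after subtraction of each diet's mean, and points the r without the 2 libraries farthest in Insig1. Most enzymes have bars between 0.4 and 0.72, Ebp and Ggps1 lie near 0, and Abca1 has the lowest value at -0.600.

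Among the 23 further genes of cholesterol handling, none passed at any dose, in the slope or among the 4 diets in edgeR, and at 2.5% 10 of the 23 had a positive log2 change, against 46.9% of all genes tested, with a median of -0.02. An unadjusted p under 0.05 was found for 3 of the 23 at 0.5%, 1 at 1.0% and 2 at 2.5%, for 1 in the slope and for 2 among the 4 diets, beside 7.14%, 3.18%, 8.43%, 7.32% and 6.41% of all genes tested. The 2 at 2.5% were Mbtps2, the Golgi protease that frees SREBP2, at 0.16 ± 0.07 (SE, edgeR adjusted p = 0.551) and Stard3, a late endosomal sterol carrier, at -0.21 ± 0.08 (edgeR adjusted p = 0.487). At 0.5% the log2 change of Mbtps2 was 0.19 ± 0.07 (unadjusted p = 0.0164, edgeR adjusted p = 0.676), and the slope of Stard3 was -0.09 ± 0.03 in log2 per 1% (unadjusted p = 0.00878, edgeR adjusted p = 0.484). Both were named after their values were seen. The liver X receptor genes Nr1h2 and Nr1h3 had log2 changes of 0.00 ± 0.08 and -0.18 ± 0.12 (SE) at 2.5%. Abcg1, which exports cholesterol to high-density lipoprotein, had one of 0.08 ± 0.14, and Soat1, the acyltransferase found in most tissues, one of -0.02 ± 0.12.

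Some counts are uncertain because exons are shared with other genes and the sources used here do not say whether reads were counted by strand. On the opposite strand, Hmgcs1 shares 557 exon bases with Gm48342, Idi1 323 with Gm48574, Ggps1 257 with Arid4b, Fdft1 774 with Ctsb, Lss 381 with 4930483K19Rik, Cyp51 166 with Akap9, Scap 985 with 5830462I19Rik and Npc1 511 with Rmc1. On the same strand Fdps shares 1124 exon bases with Gm43738 and Tm7sf2 532 with Vps51. On GRCm38, Hmgcs1 spans chromosome 13 from 119690379 to 119708260 and Idi1 chromosome 13 from 8885501 to 8892451, both plus strand. Insig1 spans chromosome 5 from 28071363 to 28078662 (plus) and Sqle chromosome 15 from 59315077 to 59331192 (plus). Abca1 spans chromosome 4 from 53030787 to 53159895 (minus) and Npc1l1 chromosome 11 from 6211013 to 6230143 (minus), and Abcg5 and Abcg8 chromosome 17 from 84658234 to 84683011 (minus) and from 84676302 to 84700333 (plus).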

How the data were processed

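Messenger RNA libraries were made with a kit that marks strand, per the labels' protocols, and the deposited table holds whole-number counts for each gene in 21 libraries. The build is mm10 per the submitters' processing notes. The sources used here do not name the aligner, the counting tool or its strand setting. Names and positions came from GENCODE mouse release 21, where 25268 of 25361 identifiers were found. Groups follow the diet label, and libraries of 1 diet were checked for duplicates by a chi-square test per pair of libraries (lowest chi-square per degree of freedom 17.1).

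The count test was that of edgeR 4.0.16, run in R 4.3.3 (TMM scaling, filterByExpr by diet, robust quasi-likelihood test, two-sided) in 1 fit of all 21 libraries, with Benjamini-Hochberg adjustment over the 15652 genes kept. CPM values use library totals with TMM factors, and log2 CPM a prior count of 2. Tested on simulated data for 2.5% against 0%, the fit recovered 96.0% of 200 genes changed by a log2 of 1 among 15652, with 5 calls among the rest. The changed genes were drawn only from those above a minimum level, and the simulated libraries did not differ in small intestine or immediate early markers. Recovery of smaller changes, such as the 0.41 of Insig1 at 2.5%, was not simulated. Alternatives were RLE scaling, library totals, no count filter, DESeq2 1.42.0, limma 3.58.1 voom, only the groups compared, a small intestine covariate, and fits that left out libraries. A floor of 3 counts was used for a count of 0, which covers counting error only. A library was called high in small intestine markers at a list mean above 1 log2 CPM, chosen after the values were seen.

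The genes and lists were chosen with earlier results of these data known. Values per library are given for Hmgcs1, Idi1, Sqle, Insig1, Srebf2, Npc1l1, Soat2, Abca1, Abcg5, Abcg8 and Mylip and for the 3 with the lowest p at 2.5%. They were also to be given for genes called in any comparison of the main fit, of which there were none. Of the further cholesterol genes, Abcg1, Nr1h2, Nr1h3 and Soat1 and any called were named.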

Additional observations from a re-analysis of the deposited data

Results flagged for a closer look

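Among 124 sets of 4 diets and 31 genes, 16 values of 12 genes had a gap to the nearest library of their diet too wide by Dixon's criterion, which chance exceeds in about 1 of 20 groups. Of the 16, 15 were in the 6 libraries high in small intestine markers. Npc1l1 was far above its diet in 0% replicate 5 (40.2 CPM) and 1.0% replicate 1 (53.6 CPM). In the same 2 libraries so were Soat2 (5.82 and 10.7 CPM), Abcg5 (15.6 and 22.7 CPM) and Abcg8 (17.4 and 23.4 CPM).

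In 1.0% replicate 1, 5 synthesis and sensing genes were also far above the other libraries of that diet. They were Mvk at 7.63 CPM, Idi1 at 221.0 CPM, Cyp51 at 184.0 CPM, Insig1 at 182.0 CPM and Insig2 at 89.0 CPM. Further apart from their diet were Ebp in 1.0% replicate 5, the highest at 39.2 CPM, Ggps1 in 0.5% replicate 4, the lowest at 62.4 CPM, and Scap in 2.5% replicate 2, the lowest at 19.9 CPM.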

How the results depend on the processing

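In edgeR, DESeq2 and limma voom, 0 of the 31 genes were called in any comparison, and leaving out each library in turn gave 0 throughout. The 1 exception was Acat2, called at 2.5% when the 6 libraries with high small intestine markers were left out (1 of 31, log2 change 0.46 ± 0.10 (SE), edgeR adjusted p = 0.0397). That fit rests on 2.5% replicates 3 to 5, and it also called more of all genes than the main fit, as given below. The 19 positive SREBP2 targets at 2.5% became 10 without 2.5% replicates 3 to 5, 20 without the 6 and 17 with library totals, and 17 to 21 without any 1 library. The 14 at 1.0% became 8 without either the 2 or the 6 libraries high in small intestine markers. In the correlation with Insig1, 12 genes instead of 0 passed with all 21 libraries, and 0 with only the 15 low in small intestine markers.

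Counts over all genes moved more. At 0.5% 1 gene was called, 2 by DESeq2, and 0 with only the 2 groups, without animals numbered above 70, without the 6 libraries or without 2.5% replicates 3 to 5 (0 to 2 without any 1 library). At 2.5% 17 were called, 84 by DESeq2, 7 by voom, 7 with library totals, 0 with only the 2 groups, 5 without the 2 highest libraries, 5 without animals above 70, 121 without the 6 and 0 without 2.5% replicates 3 to 5 (0 to 56 without any 1 library, lowest without 2.5% replicate 3 and highest without 2.5% replicate 1). For the slope 23 became 60 by DESeq2, 9 by voom, 11, 13, 101 and 0 under the same 4 removals and 15 with the covariate (0 to 56). For any difference 4 became 68 by DESeq2, 2 by voom, and 2, 0, 86 and 0 under those removals (0 to 35). At 1.0% 0 were called under every alternative. The causes were not tested.

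Signs at 2.5% turned for Srebf2 (-0.072), Npc1l1 (0.017) and Abca1 (0.12) without 2.5% replicates 3 to 5. They turned for Npc1l1 with voom (0.40), and with the covariate for Npc1l1 (0.78) and Abcg5 (0.20). They turned without the 2 highest libraries for Npc1l1 (3.49), Soat2 (0.29), Abcg5 (2.97) and Abcg8 (1.88), and without the 6 for Soat2 (0.24) and Mylip (-0.022). Leaving out 1 library, ranges were -1.93 to 3.50 for Npc1l1, -0.65 to 0.29 for Soat2, -2.75 to 2.97 for Abcg5, -2.67 to 1.88 for Abcg8, -0.13 to 0.039 for Abca1 and -0.0093 to 0.15 for Mylip. They were 0.20 to 0.50 for Hmgcs1, 0.16 to 0.36 for Idi1, 0.28 to 0.44 for Sqle, 0.28 to 0.54 for Insig1, 0.02 to 0.10 for Srebf2 and 0.20 to 0.30 for Npc1, each lowest without 2.5% replicate 5. No paired analysis was possible because replicate numbers were given in accession order and pair nothing.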
